A study of Mus musculus with 21 samples.

Results

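The comparison described here set 2 Setd2 knockout (KO) lines against wild type (WT) on day 1 in control medium. It holds 4 of the 20 H3K36me3 ChIP-seq libraries of the series, taken by their labels: 2 WT libraries, replicates 1 and 2, and 1 library each of KO line 1 and KO line 2. All 4 come from C2C12, a line of mouse muscle precursor cells (myoblasts) that can be made to differentiate into muscle in a dish. The rest of the series holds day 0 and day 5 and a methionine-restricted arm, and was used only where named below. The labels give neither the knockout allele nor the medium, do not say whether a line is a single clone, and do not say that the WT replicates were separate cultures. The p-values below therefore measure the spread between these libraries, which may be technical. Peak names inside the deposited lists call the knockout libraries replicates 1 and 2 of a single group. The labels, which call them line 1 and line 2, were followed.

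SETD2 is the main enzyme that adds the third methyl group to lysine 36 of histone H3. It travels with elongating RNA polymerase II, so the mark builds up over the bodies of transcribed genes, rising from the start towards the end, and is largely absent from promoters. Proteins that bind the mark take part in splicing, in DNA methylation within genes and in keeping cryptic start sites silent. The measure used for each gene is its cover, the percent of the gene body, from annotated start to end with introns, that lay inside called peaks. It was taken over 19304 protein-coding genes of at least 2 kb. Cover measures where peaks were called, not the height of the mark. Fewer cells with the mark and less mark per cell cannot be told apart.

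A gene with high cover in WT usually starts with a stretch outside peaks. The 300-base windows around an annotated transcript start of 4 genes are shown because these genes stand for the patterns described below: the targeted gene, a collagen gene that was covered in WT and in line 1, a sarcomere gene that was covered in WT alone, and a gene that was covered in the knockout lines alone. The sequences are from RefSeq on GRCm38.p6, 5′ to 3′, and the capitals mark the last 50 bases of each window, which begin at the transcript start it was built on. That start is the start of the gene body for Col1a2 and Vmn2r85, and lies 97 bases inside the gene body of Setd2 and 10 bases inside that of Ttn.
Setd2, chr9:110532347-110532646, plus strand: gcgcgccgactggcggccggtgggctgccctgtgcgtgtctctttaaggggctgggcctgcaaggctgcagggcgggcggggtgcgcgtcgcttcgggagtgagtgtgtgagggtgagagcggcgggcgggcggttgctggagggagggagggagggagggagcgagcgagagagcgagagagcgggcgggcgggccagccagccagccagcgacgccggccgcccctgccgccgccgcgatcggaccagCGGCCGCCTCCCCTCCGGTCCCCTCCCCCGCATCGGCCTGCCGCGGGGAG
Col1a2, chr6:4505368-4505667, plus strand: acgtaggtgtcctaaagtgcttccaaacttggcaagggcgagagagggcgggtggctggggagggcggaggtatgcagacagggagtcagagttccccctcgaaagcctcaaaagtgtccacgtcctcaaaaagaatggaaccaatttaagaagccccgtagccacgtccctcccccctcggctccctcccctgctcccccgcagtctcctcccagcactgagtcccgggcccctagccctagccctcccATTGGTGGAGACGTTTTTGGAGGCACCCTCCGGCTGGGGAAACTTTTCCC
Ttn, chr2:76982498-76982797, minus strand: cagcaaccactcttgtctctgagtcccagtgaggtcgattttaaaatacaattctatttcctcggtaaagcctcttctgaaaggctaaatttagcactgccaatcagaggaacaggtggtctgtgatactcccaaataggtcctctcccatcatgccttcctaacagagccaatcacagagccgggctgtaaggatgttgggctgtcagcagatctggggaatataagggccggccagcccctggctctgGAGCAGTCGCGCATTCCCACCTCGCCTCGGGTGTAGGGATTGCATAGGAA
Vmn2r85, chr10:130429563-130429862, minus strand: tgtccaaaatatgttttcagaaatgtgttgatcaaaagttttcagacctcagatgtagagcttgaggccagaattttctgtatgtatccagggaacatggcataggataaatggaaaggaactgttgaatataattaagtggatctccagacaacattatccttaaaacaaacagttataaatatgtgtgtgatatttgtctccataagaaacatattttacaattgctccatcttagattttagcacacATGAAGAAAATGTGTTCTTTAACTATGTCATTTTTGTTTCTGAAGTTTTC
None of these windows lay inside a peak in any of the 4 libraries. The letters CG, counted on the printed strand, occurred 38 times in the Setd2 window, 13 times in that of Col1a2, 8 times in that of Ttn and 0 times in that of Vmn2r85, and the median over the 15328 genes matched to a window was 16. From the gene's start, the first peak in Col1a2 began after 3764 bases in WT replicate 1, 959 bases in WT replicate 2 and 634 bases in line 1. In Ttn it began after 1739 and 1632 bases in WT, with no peak in either knockout line. Over all 32851 RefSeq windows, at least 50% of the window lay inside a peak for 761 and 731 windows in WT, 73 in line 1 and 28 in line 2.

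Both knockout lines had far less peak cover than WT, and line 2 had far less than line 1. Merged peaks covered 140.2 Mb in WT replicate 1, 150.2 Mb in WT replicate 2, 13.9 Mb in line 1 and 2.72 Mb in line 2. The WT mean of 145.2 ± 7.07 Mb (SD, n = 2) was 10.5 times the length in line 1 and 53.3 times that in line 2. Neither line came near the range of the WT replicates, and the lines differed from each other by 5.09-fold. The number of peaks differed less than their length did, with 79690 and 75936 peaks in WT, 19058 in line 1 and 5492 in line 2. Peaks were also narrower, with a median width of 803 and 853 bases in WT, 477 in line 1 and 387 in line 2. An exact two-sided permutation test over 2 against 2 libraries gave p = 0.333 for the covered length, the smallest p that 6 arrangements allow. The same p, also after Benjamini-Hochberg adjustment over 5 such tests, was found for the number of peaks, the genes with at least 50% cover, the genes with any cover and the share of cover in gene bodies. Read depth is unknown, and its part in the gap between the lines was not tested.

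The remaining cover lay in different places in the 2 lines. Annotated gene bodies of every type, which span 45.8% of the chromosomes, held 95.1% and 95.2% of the covered bases in WT, 79.6% in line 1 and 31.4% in line 2. Of the bases in line 1 peaks, 66.1% lay inside a peak of either WT library, although WT peaks hold only 6.30% of the chromosomes. In line 2 the share was 2.51%. Among the peaks of line 1, 11312 of 19058 (59.4%) touched a WT peak, against 180 of 5492 (3.28%) in line 2. Line 1 cover was thus mostly a subset of the WT pattern, and line 2 cover was not.

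**Figure D1:**
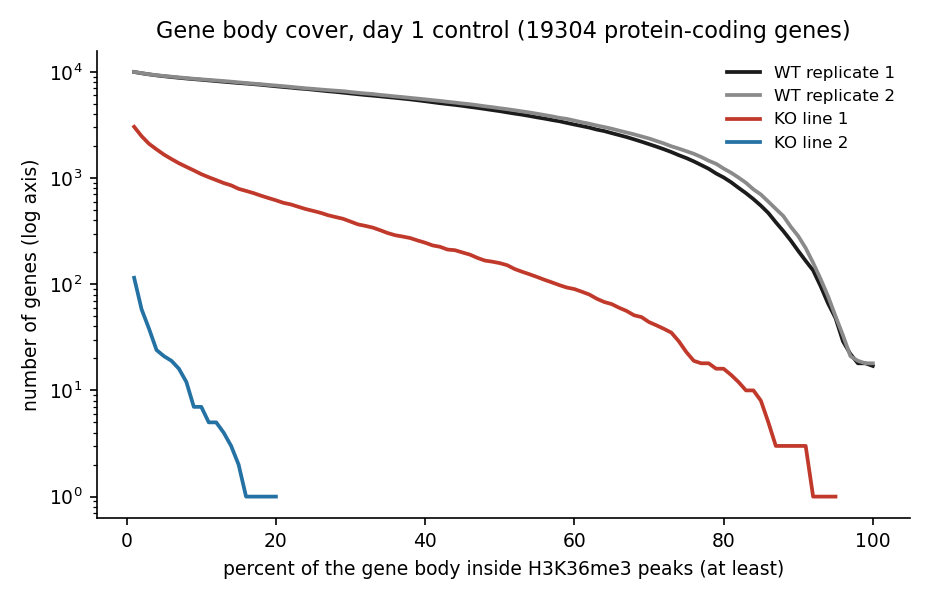
Number of protein-coding genes (log axis) whose gene body was inside H3K36me3 peaks for at least the percent on the x axis, 1 curve per day 1 control library. The WT curves nearly coincide, line 1 falls to 158 genes at 50%, and line 2 ends at 20.7%.

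The Setd2 gene itself (chr9:110532500-110618633) had 62.4% and 69.9% of its body inside peaks in WT, 2.07% in line 1 and 0% in line 2. This is the mark over the gene and not its expression, so it checks neither the deletion nor the labels. Over all genes, any cover was found in 10271 and 10237 genes in WT, 3972 (20.6%) in line 1 and 587 (3.04%) in line 2. Cover of at least 50%, called marked below, was found in 4264 and 4541 genes in WT, 158 (0.818%) in line 1 and none in line 2, where the highest gene reached 20.7%. At each threshold of 25%, 50% and 75% the WT counts stood above line 1, and line 1 above line 2.

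Gene by gene, limma was fitted to the 8485 genes whose cover averaged 5% or more over the 4 libraries. With both knockout lines as samples of the knockout, 8082 genes (95.3%) were lower in the knockout and none higher at a Benjamini-Hochberg adjusted p under 0.05. At an unadjusted p under 0.05 the count was 8097. Without the filter on cover, 9143 of all 19304 genes were called, 9095 lower and 48 higher. A gene without knockout cover had to average at least 10% in WT to be tested, so this share describes how widespread the loss was among covered genes. The median difference was -49.8 percentage points. Centring each library on its median, which sets that shift to about 0, gave 2290 genes lower and 3116 higher. Centring fixes the balance of the directions by its construction. Taken alone against the 2 WT libraries, line 1 differed in 8037 genes (94.7%), being lower in 8020 (94.5%) and higher in 17 (0.200%), and line 2 was lower in 8121 (95.7%) and higher in 2 (0.0236%). In the fits of a single line the spread came from the replicates of 10 WT libraries in 5 conditions, and the lone knockout library was assumed to vary like them.

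The largest losses among long genes nearly free of overlapping neighbours came in genes of several kinds. In the 10 such genes, cover was 92.8% or more in both WT libraries, at most 6.02% in line 1 and 0% in line 2. Cdh15, the M-cadherin of muscle precursors, had 96.6% and 96.7% cover in WT, 4.33% in line 1 and 0% in line 2. Ttn (chr2:76703980-76982557), which encodes the giant sarcomere protein titin, had 92.8% and 94.5% in WT and 0% in both lines, over a gene body of 279 kb. Both WT libraries were high and both knockout lines at or near 0 in each of these genes, with adjusted limma p-values of 0.000466 and 0.000288. Lamb1, a laminin chain of the basement membrane, had 95.7% and 95.1% in WT, 5.05% in line 1 and 0% in line 2. Trrap, a scaffold of histone acetyltransferase complexes, had 95.7% and 96.2% in WT, 6.02% in line 1 and 0% in line 2. Secisbp2, which binds the element that directs selenocysteine insertion, had 96.4% and 96.5% in WT, 3.96% in line 1 and 0% in line 2. Among genes with a WT mean of at least 90% that were at 0% in both lines, the longest after Ttn were Rpn2, a subunit of the oligosaccharyltransferase (92.4% and 90.6% in WT), Mcm3ap (92.4% and 92.1%), the receptor gene Notch3 (95.1% and 93.3%), which another gene overlaps in part, and Odf2 (90.2% and 90.7%).

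Against this loss, a small set of genes had as much or nearly as much cover in line 1 as in WT. Fn1 (chr1:71585473-71653280), which encodes the matrix protein fibronectin, had 97.7% and 97.9% cover in WT, 95.4% in line 1 and 0% in line 2. Thbs1, encoding thrombospondin 1, had 92.2% and 89.9% in WT, 91.2% in line 1 and 0% in line 2. Col1a2 (chr6:4505618-4541543), a chain of type I collagen, had 87.5% and 94.4% in WT, 91.1% in line 1 and 0% in line 2. Line 1 lay inside the WT range for the last 2 of these genes and just below it for Fn1, while line 2 was at 0% for all 3. In line 1 alone the differences from WT were -2.35 points for Fn1, 0.15 for Thbs1 and 0.15 for Col1a2, with adjusted limma p-values of 0.106, 0.965 and 0.971. In the fit over both lines the Fn1 difference was -50.1 ± 70.8 points (SE; limma, adjusted p = 0.527), because the lines stood at opposite ends of the scale.

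The other genes with the highest line 1 cover were of mixed function. Top2a, the topoisomerase of dividing cells, had 95.7% and 96.3% in WT, 85.7% in line 1 and 0% in line 2. Scd2, a desaturase of fatty acid synthesis, had 93.2% and 93.1% in WT, 86.1% in line 1 and 0% in line 2. Rpl3, a ribosomal protein of the large subunit, had 90.5% and 88.7% in WT, 85.7% in line 1 and 0% in line 2. Col3a1, Dnaja2 and Zfp330 had 84.9%, 86.9% and 84.1% in line 1, each inside its WT range, and 0% in line 2. The last of the 10, Csf1, is overlapped over its whole body by another annotated gene, so its 85.9% in line 1 cannot be assigned to it.

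**Figure D2:**
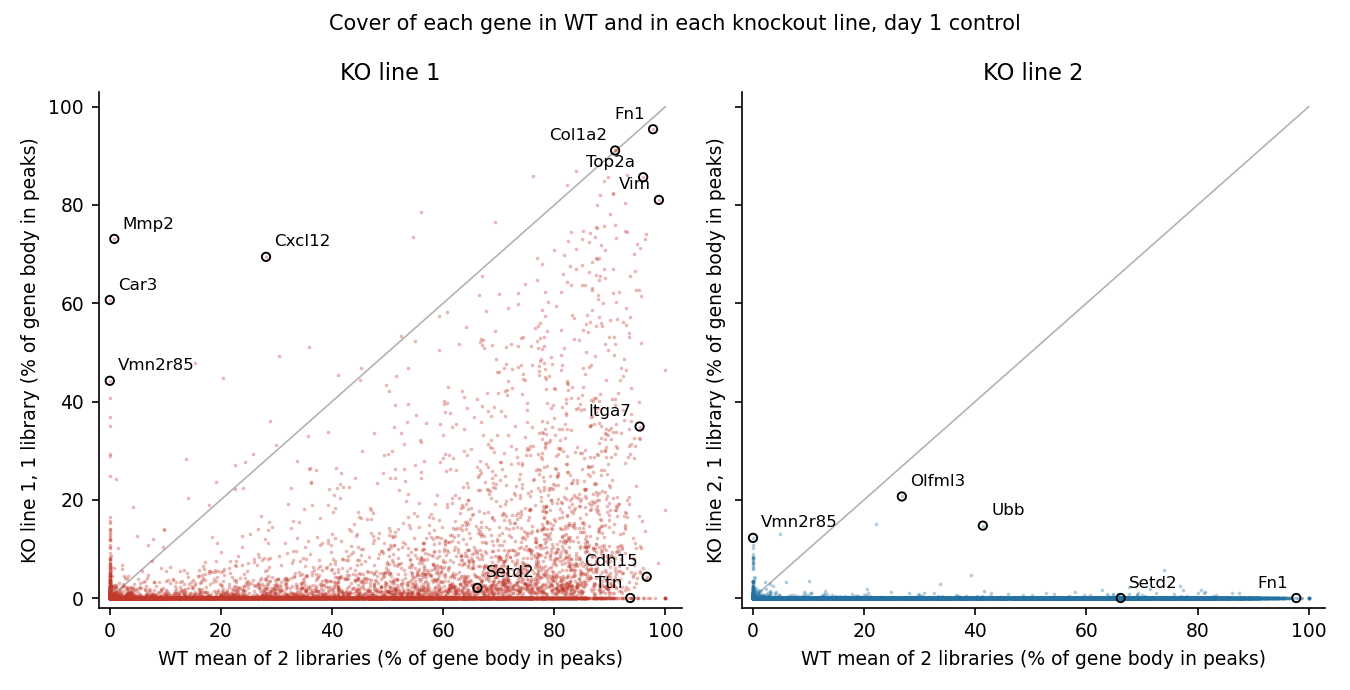
Cover of each of 19304 genes (percent of the gene body inside peaks) in KO line 1 (left) and KO line 2 (right), each 1 library, against the mean of the 2 WT libraries; the grey line marks equal cover and circled genes are named in the text. In line 1 most points lie below the grey line, from Ttn at 0% to Fn1 at 95.4%, and a few such as Mmp2 (73.1%) and Cxcl12 (69.4%) lie above it, while in line 2 no gene passes 20.7%.

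Genes marked in line 1 came almost wholly from those marked in WT. Of the 4421 genes with a WT mean of at least 50%, 2277 (51.5%) had any cover in line 1 and 154 (3.48%) were marked there, while 2144 (48.5%) were at 0%. In line 2 only 41 of them had any cover, at most 5.68%. The 158 genes marked in line 1 had a median of 76.6% of their WT cover. Of these, chosen on their line 1 cover, 117 were called lower than WT in line 1, 37 were not called and 4 were called higher, where 94.5% of all tested genes were lower and 0.200% higher. Just inside the threshold of 50% were Copa (50.1%) and Orc6 (50.5%), and just outside it Trim28 (49.4%) and Ccnf (49.4%).

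Line 1 cover followed the extent of the mark in WT. Among genes with 90% to 100% cover in WT, 82.5% of 217 had any cover in line 1 and 39 were marked. Among those at 50% to 75%, 41.1% of 2784 had any and 30 were marked. Across the 4421 genes marked in WT, Spearman's rho between WT and line 1 cover was 0.365, a description across genes that share libraries. Among the 4421 genes, long ones more often held a line 1 peak, but over a smaller part of the body. Any cover was found in 31.2% of genes of 2 to 5 kb and 76.1% of those over 100 kb, whereas 4.94% of the short and none of the 109 long genes were marked. Outside this set, Nrp2, of 115 kb and with 38.9% and 32.8% cover in WT, was marked in line 1 at 51.2%. The marked genes of line 1 had a median length of 13.02 kb, against 17.97 kb for the genes marked in WT.

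The same was seen from the side of the WT peaks, ranked by the authors' fold enrichment within each list. Peaks of line 1 touched 2.40% of WT replicate 1 peaks in the lowest decile and 36.1% in the highest. For WT replicate 2 the shares were 2.69% and 37.9%. By width, line 1 peaks touched 1.32% of the narrowest and 40.4% of the widest decile of replicate 1. Wide peaks are easier to touch, so the share of their bases inside line 1 peaks was also taken. Within the highest decile by fold it was 4.42% for peaks under 2 kb and 14.7% for wider ones. Peaks of line 2 touched at most 0.408% of any decile by fold.

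**Figure D3:**
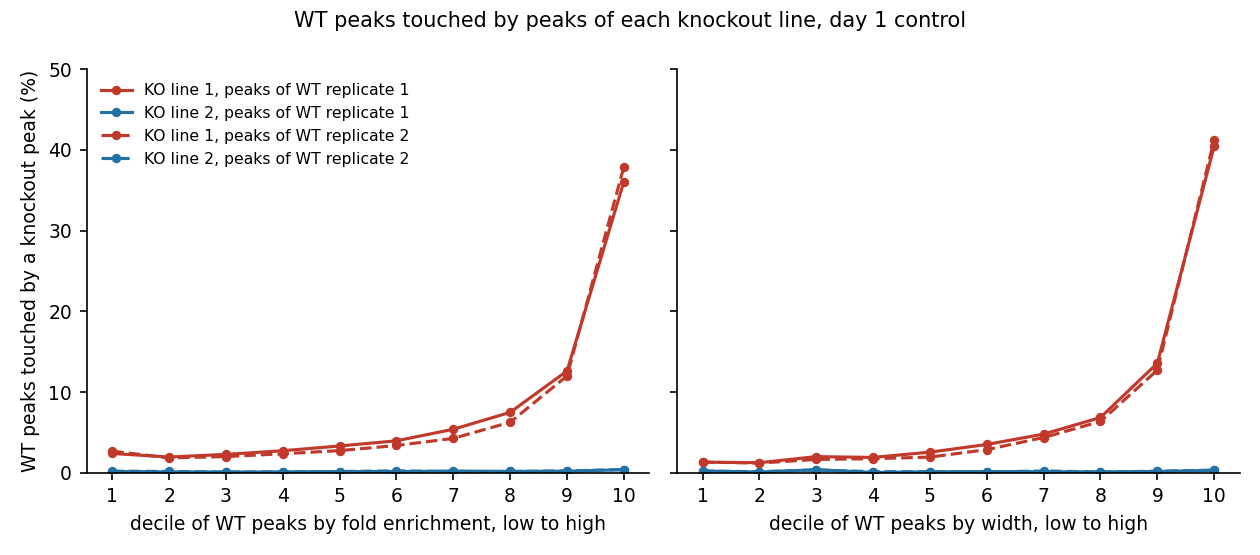
Percent of WT peaks touched by at least 1 base of a knockout peak, by decile of fold enrichment (left) and of width (right), for the peaks of WT replicate 1 (solid) and replicate 2 (dashed). Line 1 stays under 8% up to the eighth decile by fold and reaches 36.1% and 37.9% in the highest, while line 2 stays near 0.

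Along gene bodies, line 1 peaks began later than WT peaks and were sparser again in the last part of the gene. Over 3606 marked WT genes with a known strand, the first decile of the gene was 10.2% and 11.1% covered in WT, the fifth 81.0% and 83.4%, the eighth 89.0% and 90.7%, and the last 84.3% and 86.8%. In line 1 the same deciles were 0.309%, 8.59%, 12.4% and 8.30% covered. The WT curves were nearly flat from the sixth decile on, whereas line 1 was lower again in the last decile. In 369 of these genes with at least 25% cover in line 1, chosen on that value, line 1 cover was 53.0% in the fifth decile, 70.2% in the eighth and 44.0% in the last. In the same genes the first peak began a median of 1729 and 1617 bases from the gene's start in WT and 3251 bases in line 1. It began later in line 1 than in both WT libraries in 345 of 369 genes (93.5%), by a median of 1313 bases from the WT mean, where the WT replicates differed by a median of 143 bases.

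**Figure D4:**
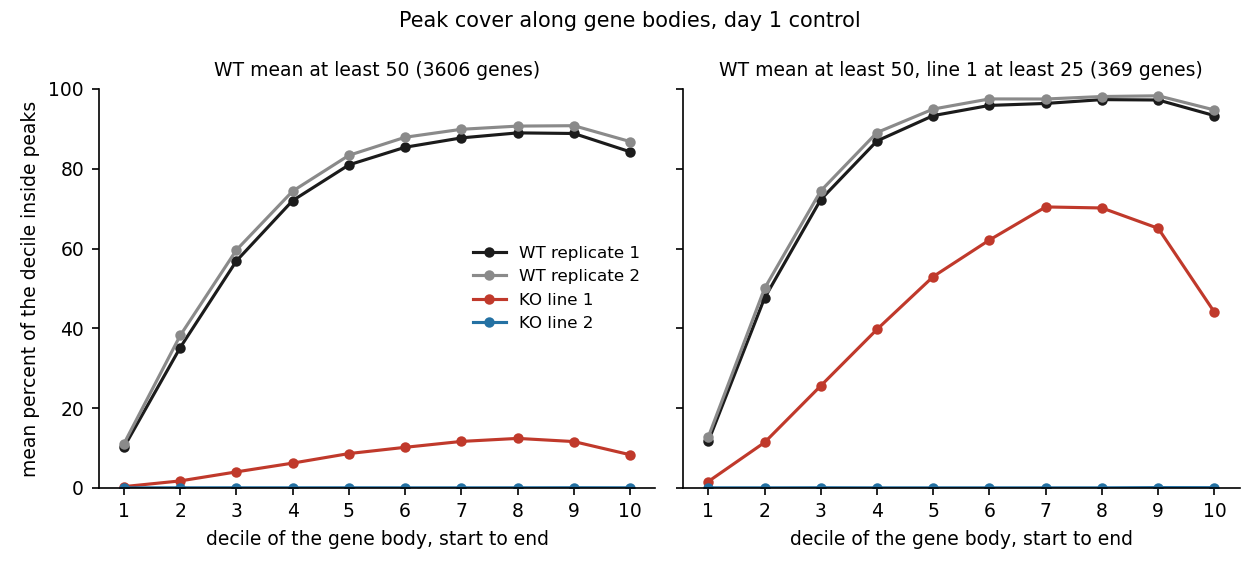
Mean percent of each decile of the gene body inside peaks, from start to end of the gene, in the 4 day 1 control libraries, for all marked WT genes with a known strand (left) and those with at least 25% cover in line 1 (right). WT levels off after the fifth decile, line 1 peaks at 12.4% (left) and near 70% (right) before dropping in the last decile, and line 2 lies at 0 on this scale.

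Groups of genes with a shared function differed in how much of their WT cover was seen in line 1. The groups below were listed from known function, with earlier results of these data known, and are described by counts only. Of 28 measured genes for collagens and other matrix proteins, 15 had a WT mean of at least 50%, and 9 were marked in line 1, where 3.48% of all genes marked in WT were. Their median line 1 cover, over the 15, was 75.6%, against 0.638% over all 4421. Their median WT cover was also higher, 85.1% against 69.8%, and the share marked in line 1 rose with WT cover. Of all genes with 75% to 90% cover in WT, 5.99% were marked in line 1. Several groups below also had a higher WT median than all genes marked in WT. In line 1 alone, 14 of the 22 tested were lower, 1 higher and 7 not called, where 94.5% of all tested genes were lower and 0.200% higher. In line 2, 21 of 22 were lower, like the 95.7% of all tested genes.

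Besides Fn1, Thbs1, Col1a2 and Col3a1, the fibrillar collagen gene Col1a1 had 69.1% and 69.6% in WT and 76.5% in line 1. Sparc, which encodes osteonectin, had 89.3% and 90.9% in WT and 78.2% in line 1. Serpinh1, the collagen chaperone of the endoplasmic reticulum, had 87.6% in both WT libraries and 75.6% in line 1. All 3 were at 0% in line 2. Other matrix genes were nearly without line 1 cover: the tenascin gene Tnc had 71.5% and 76.3% in WT and 1.41% in line 1, Thbs2 had 72.9% and 83.8% and 0.994%, and Fbn1, the fibrillin gene, 49.9% and 52.5% and 0%. Within this group line 1 cover thus ran from 0% to above both WT libraries.

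The cytoskeleton and adhesion genes resembled the matrix genes in part. Of 29 measured, 23 had a WT mean of at least 50% and 9 of these were marked in line 1, against 3.48% of all genes marked in WT. Vim, encoding the intermediate filament vimentin, had 99.1% and 98.5% in WT and 81.0% in line 1. The filamin gene Flna had 81.6% and 84.3% in WT and 74.5% in line 1. Actb, cytoplasmic beta-actin, had 63.8% and 64.4% in WT and 55.2% in line 1. Each was at 0% in line 2, and none of the 29 genes had any line 2 cover, which only 41 of the 4421 genes marked in WT had. Line 1 was lower in 27 of 28 tested, near the 94.5% of all tested genes.

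Genes of protein synthesis and folding held intermediate cover in line 1. The shares to read them against are those of all genes marked in WT, 51.5% with any line 1 cover and 3.48% marked there. Of 66 measured cytosolic ribosomal protein genes, 62 had a WT mean of at least 50%. Of these 62, 47 had any cover in line 1 and 9 were marked, with a median of 28.2%. These genes have many near-identical pseudogene copies, so their cover is uncertain. Among 24 chaperone genes marked in WT, of 25 measured, 23 had any cover in line 1 and 9 were marked. Hsp90ab1, a cytosolic HSP90, had 84.8% and 90.8% in WT and 80.01% in line 1, and Hspa5, the chaperone BiP, 93.9% and 89.2% in WT and 62.2% in line 1. Among 20 translation factors marked in WT, of 23 measured, 19 had any cover and 5 were marked. Eef1a1, which delivers aminoacyl-tRNA to the ribosome, had 97.3% and 91.6% in WT and 66.6% in line 1. All tested translation factors and chaperones, 22 and 25, were called lower in line 1, near the share of all tested genes (94.5%). None of these 3 groups had a gene with line 2 cover. Only 41 of the 4421 genes marked in WT had any, so this does not set the groups apart.

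Splicing factors, whose recruitment has been tied to this mark, gave 25 of 30 genes with any line 1 cover and 8 marked. Of the 27 with a WT mean of at least 50%, 24 had any line 1 cover and 8 were marked. Of all genes marked in WT these shares were 51.5% and 3.48%. Hnrnpa2b1 had 86.2% and 78.8% in WT and 72.6% in line 1, and Srsf3 77.1% and 89.1% in WT and 63.7% in line 1. Snrnp200, a helicase of the spliceosome, had 92.8% and 94.2% in WT but 3.36% in line 1. In glycolysis, 13 of 19 measured genes had a WT mean of at least 50%. Of these 13, 4 were marked in line 1, beside 3.48% of all genes marked in WT, among them Eno1 (82.2%) and Pkm (73.1%). Gapdh, in the same pathway, had 77.8% and 76.0% in WT and 8.36% in line 1. A group of 28 genes for cholesterol and fatty acid synthesis was put together after line 1 values had been seen. Of the 24 with a WT mean of at least 50%, 8 were marked in line 1, beside 3.48% of all genes marked in WT. The choice of genes favours this count. Among the 8 was Fasn, the fatty acid synthase, with 88.2% and 89.7% in WT, 75.6% in line 1 and 0% in line 2.

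In the fit over both lines, no listed gene was called higher, and the share called lower varied between groups. It was 12 of 22 tested matrix genes, 16 of 28 cytoskeleton genes, 16 of 25 chaperones, 14 of 22 translation factors, 46 of 65 ribosomal protein genes, 21 of 30 splicing factors and 13 of 17 glycolysis genes, each below the 95.3% of all tested genes. It was 25 of 25 proteasome genes, 25 of 27 oxidative phosphorylation genes, 25 of 29 cell cycle genes, 16 of 18 amino acid response genes, 8 of 9 methionine cycle genes and 17 of 19 TGF-beta, YAP and serum response genes. Where line 1 cover was high the lines disagreed, so the error of the fit was wide.

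Further groups had at most 2 genes marked in line 1. Of all genes marked in WT 3.48% were, with a median line 1 cover of 0.638%, and 51.5% had any. No difference between a group and all genes was tested. Of 34 measured muscle genes, 12 had a WT mean of at least 50%, 7 had any cover in line 1, a share like the 20.6% of all genes, none was marked, and none had line 2 cover. The median line 1 cover of the 12 was 0%. Myog, the regulator that starts terminal differentiation, had 70.6% and 73.2% in WT and 0% in both lines. Myod1, the regulator of muscle identity, had 67.7% and 50.2% in WT and 0% in both lines. Acta1, skeletal alpha-actin, had 66.1% and 55.8% in WT and 0% in both lines. In all 3 genes both WT libraries lay above both lines, as they did in 9882 (51.2%) of all genes. Itga7, a laminin receptor of muscle, stood highest in line 1 with 34.9%, against 95.5% and 95.2% in WT. In the fit over both lines 23 of 24 tested muscle genes were lower, close to the 95.3% of all genes.

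Among 23 proteasome genes marked in WT, of 27 measured, none was marked in line 1, and their median line 1 cover was 3.78%. Of 22 genes of oxidative phosphorylation marked in WT, out of 28 measured, 2 were marked in line 1. They were both subunits of the ATP synthase core, Atp5b with 93.1% and 100% in WT and 74.0% in line 1, and Atp5a1 with 81.7% and 85.5% in WT and 57.0% in line 1. Of 25 cell cycle genes marked in WT, out of 30 measured, 2 were marked in line 1, Top2a and Cdk1, and 20 of the 25 had any line 1 cover, with a median of 14.5%. Cdk1, the kinase of mitotic entry, had 89.8% and 91.2% in WT and 67.1% in line 1. Of 15 genes of the amino acid response marked in WT, out of 21 measured, 1 was marked in line 1, Slc38a2, an amino acid transporter, with 92.8% and 92.5% in WT and 80.4% in line 1. In the methionine cycle it was 1 of 7, out of 16 measured, Mat2a, which makes S-adenosylmethionine, with 83.6% and 84.1% in WT and 71.1% in line 1. Among TGF-beta, YAP and serum response genes it was 1 of 10, out of 21 measured, the YAP target Amotl2, with 82.3% and 82.1% in WT and 64.3% in line 1.

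**Figure D5:**
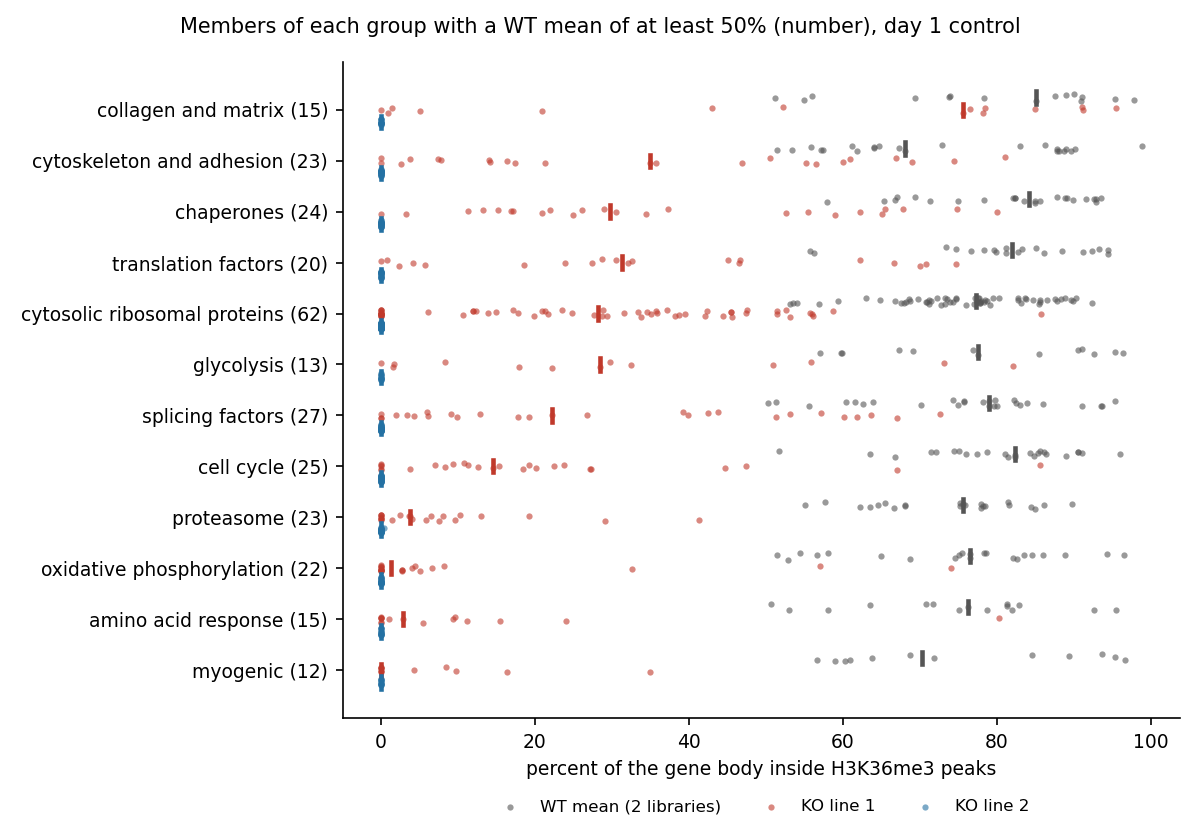
Cover (percent of the gene body inside peaks) of the members of 12 gene groups with a WT mean of at least 50%, whose number stands in brackets; points are genes, grey the mean of 2 WT libraries, red KO line 1 and blue KO line 2, and upright bars are medians. The line 1 median runs from 75.6% for collagen and matrix to 0% for the muscle genes, while nearly all blue points lie at 0.

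Genes for the enzymes and readers of the mark were called about as often as other genes. In the fit over both lines, 8 of 8 tested writer genes, 7 of 7 eraser genes and 14 of 15 reader genes were lower, beside 95.3% of all tested genes. Of 10 measured genes listed as H3K36 or related methyltransferases besides Setd2, 6 had a WT mean of at least 50% and none was marked in line 1. Nsd1, which adds the lower methylation states, had 78.8% and 84.4% in WT and 1.94% in line 1, and the highest line 1 cover was that of Setd5, 12.9%. Of 9 demethylase genes none was marked in line 1. Kdm4a, which removes the mark, had 90.1% and 88.2% in WT and 14.9% in line 1. Of 16 reader genes 10 had a WT mean of at least 50% and 1 of these was marked in line 1. These counts stand beside 3.48% of all genes marked in WT. The reader was Ptbp1, a splicing repressor that was counted here as an effector of the mark, with 85.7% and 89.5% in WT and 55.4% in line 1. Psip1, whose product LEDGF binds the mark through its PWWP domain, had 81.3% and 90.2% in WT and 22.2% in line 1. All of these genes, writers, erasers and readers, were at 0% in line 2. There 3.04% of all genes and 41 of the 4421 genes marked in WT were above 0%, so this does not set them apart.

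A few genes had more cover in line 1 than in WT. Mmp2 (chr8:92827290-92853421), which encodes a gelatinase that degrades matrix, had 1.63% and 0% in WT, 73.1% in line 1 and 0% in line 2. Cxcl12 (chr6:117168535-117181368), a chemokine gene, had 27.8% and 28.4% in WT, 69.4% in line 1 and 0% in line 2. Car3, a carbonic anhydrase of muscle and fat, was at 0% in both WT libraries, with 60.7% in line 1 and 3.20% in line 2. Line 1 stood above both WT libraries and above line 2 in all 3. Against WT the differences in line 1 were 72.3 points for Mmp2, 41.3 for Cxcl12 and 60.7 for Car3. Line 1 is 1 library, so the spread of its own cover is unknown. Mmp2, Cxcl12 and Car3 were among the genes called higher in line 1, with Ddit4l (40.6%) and Vmn2r85 (44.2%), both at 0% in WT. The rest ranged from 18.6% to 51.2% in line 1. Not all were separate places, since Car1 (36.8%) and Car2 (28.4%) lie near Car3 on chromosome 3. Aqp5 (47.8%) is overlapped over its whole body by another annotated gene. Without a test, 484 genes (2.51% of all) lay above both WT libraries in line 1 and 351 (1.82%) in line 2. Of all genes, 33 (0.171%) lay above them by at least 10 points in line 1, and 23 of these were at 0% in WT.

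Line 2 had little to rank. Only 21 genes reached 5% cover and 16 of them were at 0% in both WT libraries. The highest was Olfml3, which encodes an olfactomedin-like secreted protein, with 32.2% and 21.3% in WT, 0% in line 1 and 20.7% in line 2. Ubb, a polyubiquitin gene, had 27.3% and 55.5% in WT, 20.3% in line 1 and 14.7% in line 2, and was not called in either line (limma, adjusted p = 0.160 and 0.0857). Vmn2r85 (chr10:130418261-130429612), a vomeronasal receptor gene, was at 0% in both WT libraries, with 44.2% in line 1 and 12.2% in line 2. It was called higher in both lines by limma. Each line is 1 library, so the call rests on the spread between WT libraries. Vmn2r85 was also at 0% in the WT libraries of day 0 and of day 5 in control medium. With peaks limited to a −log10 q of at least 3, its line 1 cover was 21.4% and its line 2 cover 0%, and it was called higher in line 1 only. Tex19.2, a germline gene, had 10.8% in line 2, and Cdh10, a neuronal cadherin, 10.2%, both with 0% in the other 3 libraries.

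Peaks away from the WT pattern were partly shared between the lines. Line 1 had 7746 peaks that touched no WT peak, over 4.49 Mb, and line 2 had 5312 over 2.61 Mb. Of these bases, 45.6% in line 1 and 30.7% in line 2 lay in gene bodies. Line 2 peaks held 11.3% of the line 1 bases outside WT, although they cover 0.100% of the chromosomes. Line 1 peaks held 19.3% of the line 2 bases outside WT and cover 0.509%. In 2732 bins of 1 Mb, the 100 bins with the most such cover held 55.6% of it in line 1 and 51.1% in line 2, and 36 bins were in both sets. The stretch chr10:129000001-130000000 had 119 kb inside line 1 peaks, 32.5 kb inside line 2 peaks and none inside WT peaks.

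Among only the few widest such peaks of each line, 1 place was common to both lines. It lay in Trdn, which encodes triadin of the muscle calcium release complex and was named after its values were seen. The line 1 peak was at chr10:33180856-33191377 and the line 2 peak at chr10:33185637-33191289. Trdn cover was 0% in both WT libraries, 12.1% in line 1 and 5.90% in line 2.

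Libraries of the same lines on day 0 and day 5 in control medium gave the same order of WT, line 1 and line 2. Their values entered none of the rankings that named genes, but the gene groups were listed with earlier results of these data known. Line 1 peaks covered 17.7 Mb on day 0, 13.9 Mb on day 1 and 74.1 Mb on day 5, and line 2 peaks 1.88, 2.72 and 5.69 Mb. Of the 158 genes marked in line 1 on day 1, 127 (80.4%) were also marked there on day 0, when 204 of all 19304 genes were. On day 5, 147 (93.0%) were marked there, when 1622 of all 19304 genes were. On both other days, 122 were. Fn1 cover in line 1 was 90.1%, 95.4% and 98.8% over the 3 days, and Mmp2 cover 61.0%, 73.1% and 96.0%. In WT, Mmp2 reached 40.3% and 27.1% on day 5. Other genes higher in line 1 on day 1 held less evenly. Over the 3 days line 1 cover was 32.2%, 60.7% and 6.51% for Car3 and 0%, 40.6% and 32.9% for Ddit4l. For Vmn2r85 it was 24.3%, 44.2% and 21.5%. Cxcl12 had 65.0%, 69.4% and 67.5%, where WT had 54.0% and 54.2% on day 0 and 3.29% and 2.90% on day 5. Ttn, at 0% in line 1 on day 0 and day 1, had 92.1% there on day 5. Top2a went the other way in line 1, with 80.6%, 85.7% and 16.3%, where the WT means on day 0 and day 5 were 96.3% and 69.7%. In line 2, Fn1, Mmp2, Ttn and Top2a were at 0% on all 3 days.

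Markers of the cell type and of others were read in the same way. In WT the myoblast markers Des (84.4% and 84.6%), Cdh15, Itga7, Myod1 and Myog were covered, while Myf5 was at 0% and 11.02%. In line 1 Des had 8.41%, and all 6 were at 0% in line 2, so cover does not identify the cell type in the knockout lines. Of 34 measured markers of fat, endothelial, blood, neural and epithelial cells, 2, 2, 3 and 2 had any cover in the 4 libraries. Their summed cover was 14.4 and 8.88 points in WT, 2.57 in line 1 and 0.443 in line 2, and the highest single marker in a knockout line had 1.30%.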

How the data were processed

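H3K36me3 ChIP-seq was deposited as 1 broad peak list per library. Per the labels' protocols, Drosophila chromatin with an antibody against H2Av was added as a spike-in, and reads were single-end. The build was GRCm38, per the submitters' processing notes. The peak caller, its control and filters are not given in the sources used here. Each peak's fold enrichment, a ratio deposited by the authors, served only to rank peaks within a list. The −log10 q of each peak was also deposited by the authors and served as a filter in an alternative. Lists give no read depth, so depth and counting error are unknown. Neither the input nor the spike-in was used here.

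Overlapping or touching peaks of a library were merged and intersected with RefSeq gene bodies (GRCm38.p6). Cover was fitted with limma 3.58.1 (R 4.3.3, trend and robust), with Benjamini-Hochberg adjustment over all genes tested. The scripts were tested on simulated data. Library totals were compared by exact permutation. Strand came from the RefSeq promoter table, so only genes with a window there entered the profile along gene bodies. Genes named were those with the largest loss, the highest cover in each line, the largest excess of a line over WT, and a WT mean of at least 90% with either the highest line 1 cover or 0% in both lines. Members, lists and tests were chosen with earlier results of these data known, and the cholesterol and fatty acid group after line 1 values had been seen. Alternatives were a stricter −log10 q, a minimum width, joining near peaks, other filters and scales, and leaving out each library.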

Additional observations from a re-analysis of the deposited data

Results flagged for a closer look

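In 6 named or listed genes line 1 lay above both WT libraries and line 2 below both, a difference between the lines that was not tested. Csf1 had 73.4% and 79.1% cover in WT, 85.9% in line 1 and 0% in line 2, over a body that another annotated gene overlaps in full. Cxcl12 had 27.8% and 28.4% in WT, 69.4% in line 1 and 0% in line 2. Nrp2 had 38.9% and 32.8% in WT, 51.2% in line 1 and 0% in line 2. The other 3 were collagen genes at 0% in line 2. Col1a1 had 69.1% and 69.6% in WT and 76.5% in line 1, Col6a1 72.4% and 39.7% in WT and 78.5% in line 1, and Col12a1 0.377% and 1.24% in WT and 6.03% in line 1. Of these 6, Cxcl12 and Nrp2 were called higher in line 1 by limma, and Col12a1 was not tested. Over all genes, 37 showed this pattern, 7 of them with line 1 at least 10 points above both WT libraries.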

How the results depend on the processing

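No paired analysis was possible because, by the labels, each knockout line had 1 library, numbered 1. The numbers in the peak names differ from the labels and were not used to pair libraries. Depth is unknown, which limits what a low number of peaks can show, and cover says nothing of the height of the mark. The 5 library totals kept their direction under every alternative run. The share of line 1 cover inside WT peaks (66.1%) became 74.9% at a −log10 q of 3 or more, 70.5% with peaks of at least 500 bases, 67.0% with near peaks joined and 62.9% inside peaks of both WT libraries, and 64.1% to 64.9% leaving out a WT replicate. For line 2 (2.51%) it was 3.57%, 1.34% and, for both WT libraries, 1.37%, and 1.83% to 2.05% leaving out a WT replicate. With 50% of a peak overlapped, the shared peaks were 58.3% in line 1 and 2.80% in line 2. The genes called over both lines numbered 5211 with a mean cover of at least 20%, where 5462 were tested. Leaving out a WT replicate gave 6735 and 6810, and centring gave 5406.

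Of 851 alternatives for single named genes, 805 left the call as it was, 39 passed the threshold newly, 3 lost it and 4 reversed. In the fit over both lines, leaving out 1 library gave differences of -76.2 (without line 1) to 9.68 points (without line 2) for Csf1 and of -28.1 (without line 1) to 41.3 points (without line 2) for Cxcl12. With centring, Olfml3 and Mab21l2 were 35.1 and 36.9 points higher. Centring adds the same amount to every gene's difference, so these last 2 reversals are fixed by its construction.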
